A study of Rattus norvegicus with 8 samples.

Results

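The nuclear genes of the oxidative phosphorylation complexes were followed in the livers of grown male Sprague Dawley rats. A gene was a member when an array probe matched, through its RefSeq identifier, a symbol that begins with Ndufa, Ndufb, Ndufc, Ndufs, Ndufv, Sdh, Uqcr, Cox4, Cox5, Cox6, Cox7, Cox8 or Atp5. Where a gene had several probes, the probe of highest mean Cy5 signal stood for it, and it was kept when its Cy5 spots exceeded background, by the scanner software's own call, on 4 or more of the 8 arrays. The rule found 85 genes with a probe and kept 83 of them, among 10004 named genes kept on the array. The 83 genes were 73 subunits, 8 assembly factors, the ATP synthase inhibitor Atp5if1 and Cox7a2l, a factor that helps complexes join into supercomplexes. By complex, the subunits numbered 32 for complex I, 4 for complex II, 8 for complex III, 15 for complex IV and 14 for complex V.

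Dams were given corn oil alone (control) or a mixture of agonists of the aryl hydrocarbon receptor (AhR), a ligand-activated transcription factor, at 1.8 ng of dioxin toxic equivalents per kg per day from gestation day 0 to postnatal day 20. The AhR mixture was made of non-ortho polychlorinated biphenyls, polychlorinated dibenzodioxins and dibenzofurans. In both groups, per the labels, male pups stayed with their own dams and were sampled at 78 to 86 days of age. Each group had 4 arrays, and each array carried Cy5-labelled RNA pooled from 2 rats. Beside it was a Cy3-labelled universal rat reference RNA, made from 14 cell lines per the labels. The labels do not say which pups shared a litter, and the p-values measure the spread between pools. The comparison asks whether exposure before and after birth left a difference in adult liver RNA.

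Oxidative phosphorylation takes place in the inner mitochondrial membrane. Complex I oxidises NADH and complex II oxidises succinate, both hand electrons to ubiquinone, complex III passes them to cytochrome c, and complex IV reduces oxygen to water. Complexes I, III and IV pump protons, and complex V, the ATP synthase, lets them return and makes ATP. The hydrophobic cores of complexes I, III, IV and V are partly encoded by mitochondrial DNA, and all genes described here are nuclear. Some complex IV subunits come in tissue forms: Cox6a1 and Cox8a are the forms of liver and most tissues, and Cox6a2 and Cox8b are forms of heart and skeletal muscle. Liver is rich in mitochondria, which also serve its urea synthesis, fatty acid oxidation and gluconeogenesis.

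All 8 arrays lay on 1 slide. The median Cy5 signal per array was 159 to 232 units over a background of 71 to 76, and 56.2% to 62.0% of probes were well above background. The kept members were bright: their median mean Cy5 signal was 18538, against 620 over all named genes kept, and 76 of the 83 exceeded the value for all genes. No value of a kept member was saturated. The 2 genes with a probe that were not kept were Cox8c, a testis form of a complex IV subunit, with 0 arrays well above background, and Cox6c-ps1, a pseudogene, with 2. Just inside the rule stood Cox6a2, with 5 arrays. Of the listed subunits and assembly factors 16 had no matched probe, Cox7a1, Ndufa13, Ndufa8, Ndufs6 and Atp5mc3 among them. For 43 kept members RefSeq lists pseudogenes or copies with the same stem, whose RNA could bind the same probe.

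The liver (Cy5) and reference (Cy3) channels held nearly all members at about the same level, as they did most genes. The mean log2 ratio of Cy5 to Cy3 lay within 0.5 of 0 for 81 of the 83 members (97.6%) and for 96.3% of all named genes kept. The member median was -0.08, and the median over all named genes kept was 0.01. By complex, the median ratio of the subunits was -0.07 for complex I, -0.07 for complex II, -0.01 for complex III, -0.14 for complex IV and -0.06 for complex V. These small offsets depend on the normalization: with each array centred on its median in place of the loess fit, the member median became 0.22 and that of all genes 0.14. The 8 hepatocyte markers, Alb and Cps1 among them, had a median log2 ratio of 0.02 and ranged from -0.49 to 0.47. The reference channel thus held these liver genes at about the level of the liver channel. That sits uneasily with the label, which describes the reference as RNA of cell lines. What the Cy3 channel held was not tested, so ratios near 0 do not show that liver matches cell lines. Without a dye swap, ratios between channels are open to dye bias.

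The 2 members outside that band were the muscle forms of complex IV, Cox6a2 and Cox8b. Cox6a2 had log2 ratios of -2.78, -2.98, -2.94 and -2.87 in control and -3.06, -3.36, -3.17 and -2.83 in AhR. Its mean was -3.00 (SD 0.19, n = 8), and Cy5 was well above background on 3 control and 2 AhR arrays. Cox8b had -1.55, -1.56, -1.65 and -1.49 in control and -1.81, -1.94, -1.75 and -1.48 in AhR. Its mean was -1.66 (SD 0.17, n = 8), a 3.15-fold excess of Cy3, and Cy5 was well above background on all 8 arrays. Both genes were thus low in liver in every pool, and the control and AhR pools overlapped for both. The folds are compressed by the background offset: with the scanner software's processed signals the mean log2 ratios were -4.84 for Cox6a2 and -2.61 for Cox8b. Skeletal and heart muscle markers were low in liver too, with a median log2 ratio of -2.96 over the 5 kept of 8, Acta1 at -2.76 among them.

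The partner forms were level between the channels. Cox6a1 had log2 ratios of 0.03, 0.25, 0.08 and 0.08 in control and 0.17, 0.07, 0.05 and 0.20 in AhR, with a mean of 0.12 (SD 0.08, n = 8). Cox8a had a mean of -0.12 (SD 0.19, n = 8) and ranged from -0.42 to 0.10. Cox4i1, the common form of the largest nuclear subunit of complex IV, had 0.21 (SD 0.11, n = 8), and the complex III Rieske protein Uqcrfs1 had 0.21 (SD 0.21, n = 8). These were the highest ratios, but with processed signals Cox4i1 was at 0.096, below Uqcrfs1 at 0.19 and Ndufs7 at 0.21. Cox4i2, a form best known from lung, and Cox6b2, a form best known from testis, did not stand apart as the muscle forms did, at 0.07 (SD 0.14, n = 8) and -0.11 (SD 0.26, n = 8). The next lowest ratio after the muscle forms was that of Uqcrb, a small subunit that helps bind ubiquinone, at -0.49 (SD 0.27, n = 8), though a dimmer Uqcrb probe gave 0.02. After it came Atp5mk, a small membrane subunit of complex V, at -0.39 (SD 0.33, n = 8).

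**Figure D1:**
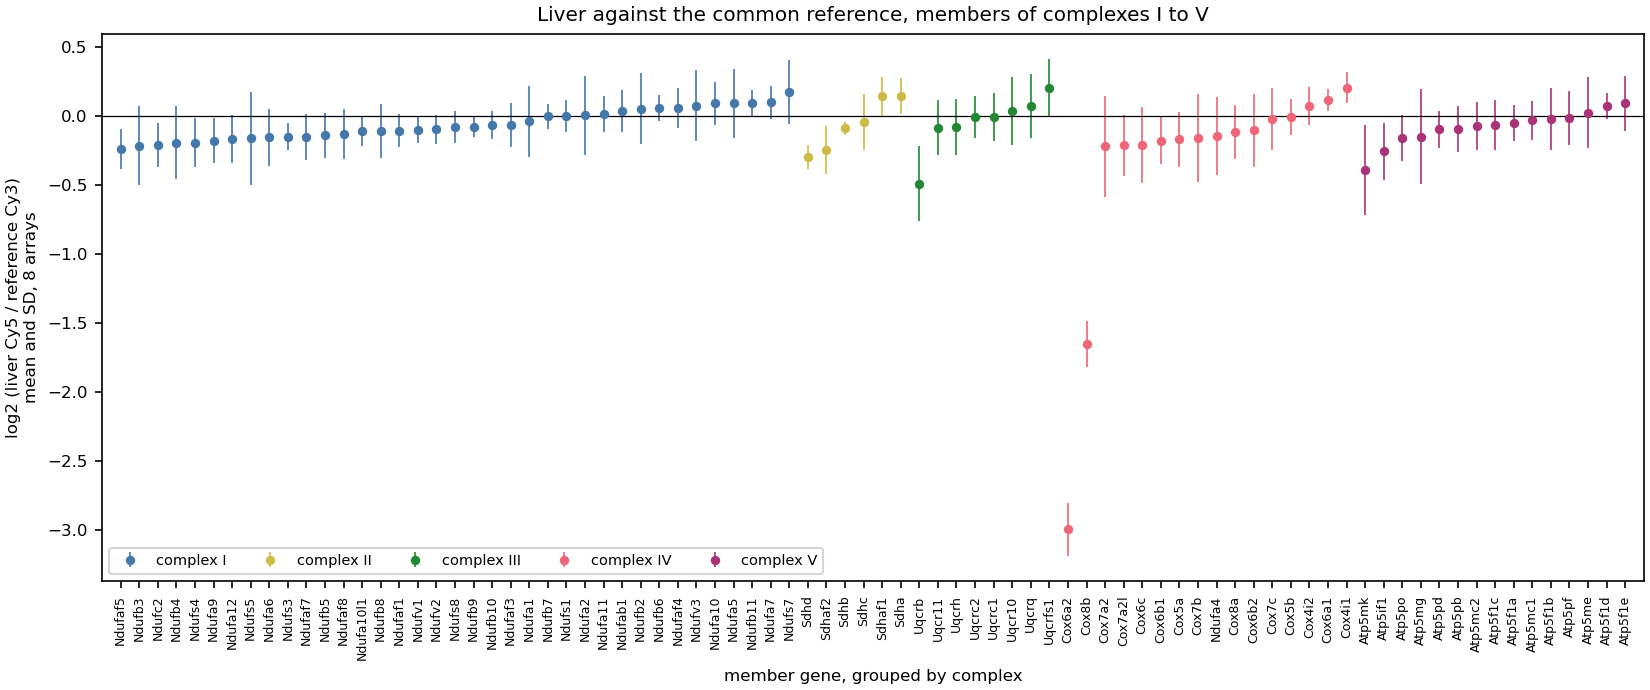
Mean log2 ratio of liver (Cy5) to reference (Cy3) for the kept members shown, grouped by complex and sorted by value, with bars of 1 SD over the 8 arrays. Members sit near 0 except Cox6a2 at -3.00 and Cox8b at -1.66, both forms of complex IV subunits found in muscle.

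The promoters of these isoforms differed in the letters they hold. The sequences are shown because Cox8a and Cox8b are forms of 1 subunit with very different ratios, and Cox6a2 is the lowest member of all. They are the 250 bases before the annotated start in RefSeq (GRCr8), read 5′ to 3′ on the gene's strand: Cox8a at chr1:213833624-213833873, Cox8b at chr1:205408274-205408523 and Cox6a2 at chr1:192219717-192219966, all on the minus strand. Capitals mark matches to CCGGAAG (the core bound by GABPA, also called NRF2), CAGCTG (an E-box of muscle type) or TAAAAATA (a MEF2 site), on either strand.
Cox8a: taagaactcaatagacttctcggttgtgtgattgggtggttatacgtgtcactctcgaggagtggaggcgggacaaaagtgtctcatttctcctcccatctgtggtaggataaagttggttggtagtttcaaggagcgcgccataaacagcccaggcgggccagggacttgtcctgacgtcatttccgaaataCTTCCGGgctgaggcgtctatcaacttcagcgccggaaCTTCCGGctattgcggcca
Cox8b: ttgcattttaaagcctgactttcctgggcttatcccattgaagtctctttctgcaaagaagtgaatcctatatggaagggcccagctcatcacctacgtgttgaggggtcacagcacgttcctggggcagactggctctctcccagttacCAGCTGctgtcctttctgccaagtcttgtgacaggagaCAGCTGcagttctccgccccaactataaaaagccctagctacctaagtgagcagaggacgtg
Cox6a2: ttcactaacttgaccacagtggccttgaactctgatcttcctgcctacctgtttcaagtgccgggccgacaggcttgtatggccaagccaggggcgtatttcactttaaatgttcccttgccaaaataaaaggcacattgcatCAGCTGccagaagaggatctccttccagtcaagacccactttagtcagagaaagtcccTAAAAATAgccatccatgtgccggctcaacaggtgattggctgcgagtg

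Cox8a held CCGGAAG on the reverse strand at 57 and 19 bases before the start, Cox8b held CAGCTG at 100 and 62 bases before it, and Cox6a2 held CAGCTG at 107 and TAAAAATA at 49 bases before it. Windows of 250 bases before to 50 bases after the start were found for 74 of the kept members and were set beside all 27457 promoters in the table. CCGGAAG was in 24 of the 74 member windows (32.4%) and in 9.22% of all promoters. GCGCATGC, a form of the NRF1 site, was in 10 (13.5%) and in 2.66% of all, and AAGATGGCG, the YY1 site, in 9 (12.2%) and in 1.93% of all. At least 1 of these 3 was in 34 member windows (45.9%) and in 12.8% of all promoters. The E-box CAGCTG was in 11 (14.9%) against 15.1% of all, and TAAAAATA in 1, that of Cox6a2, against 2.74% of all. CAGCTG was not particular to the muscle forms: Cox4i1 and Uqcrfs1, of the highest ratios, held it at 80 bases before and 45 bases after the start. CAGCTG reads the same on both strands, none of the motifs contains another, and the last 2 were searched after the windows had been seen. Over the 250 bases before the start alone, the members were richer in G and C, with a median of 56.6% against 52% for all promoters. The part of this in the counts was not tested.

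Between the groups no member passed the test. With limma and Benjamini-Hochberg adjustment over 17859 probes, 0 of the 83 members had an adjusted p of at most 0.05, and the share called over all kept probes was 0%. At an unadjusted p under 0.05 the count was 0 of 83, against 1.61% of all kept probes. Control and AhR arrays did not overlap for 1 of the 83 members, near the background share of 1.19%. The mean was lower in AhR for 53 members and higher for 30, whereas 50.5% of all named genes were lower. The median difference, AhR minus control, was -0.06 (log2), with a range from -0.28 for Ndufs5 to 0.16 for Ndufaf4. The median over all named genes was 0.00. The loess fit centres most genes of each array near 0, so the 50.5% and the 0.00 follow largely from the processing. With median centring 39 members were lower and 44 higher, at a median of 0.01, beside 33.7% lower and a median of 0.05 for all named genes. The smallest unadjusted p of a member was 0.0947 (limma, Ndufaf8), and every adjusted p rounded to 1.00.

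How closely the arrays bound each difference can be read from the intervals. The 95% interval lay within a 1.5-fold change in either direction for 81 of the 83 members (97.6%), against 91.7% of all named genes. The exceptions were Ndufs5, with -0.70 to 0.14, and Cox7a2, with -0.70 to 0.23. The median standard error of a member's difference was 0.12 (log2).

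**Figure D2:**
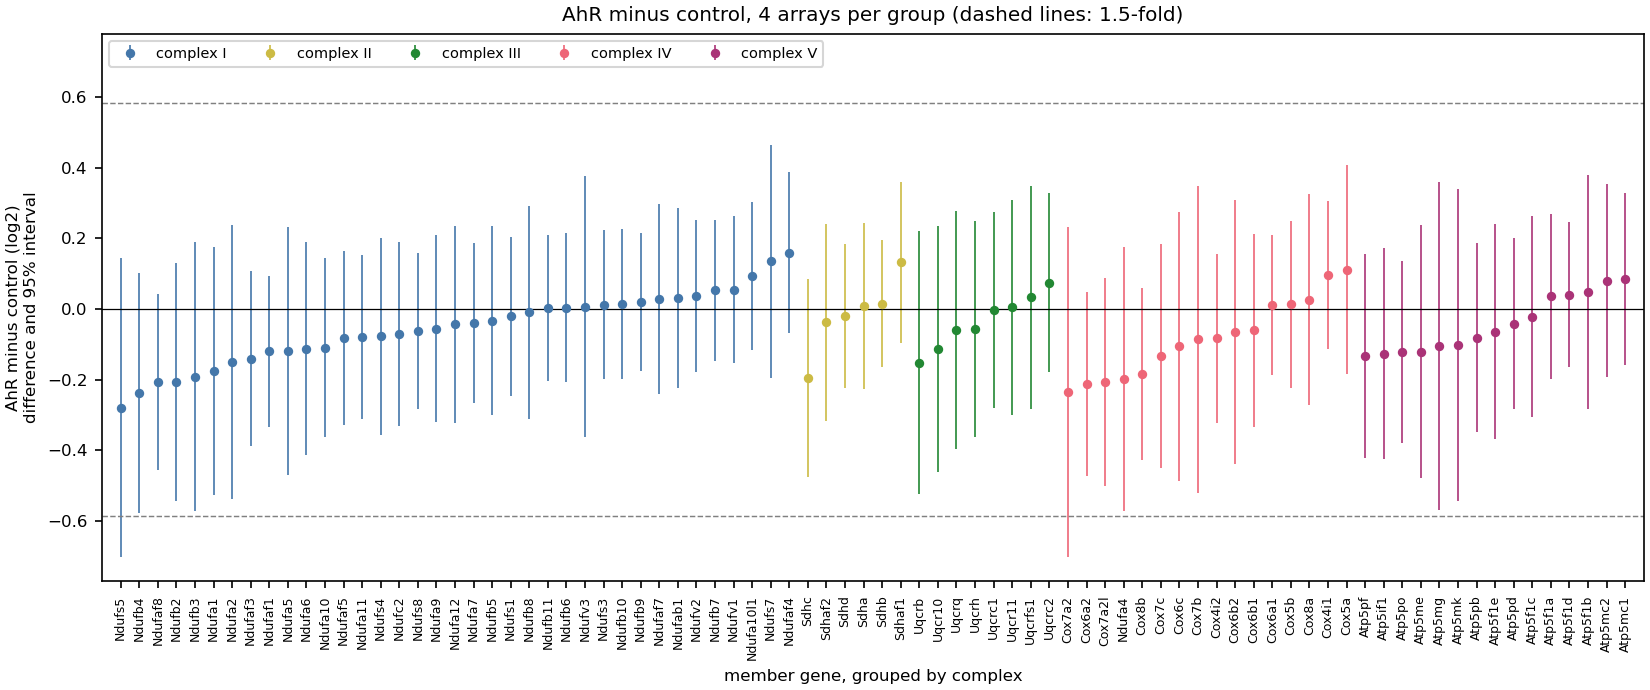
Difference in mean log2 ratio, AhR minus control, for the kept members shown, with the 95% interval from limma (4 arrays per group), grouped by complex and sorted by value. Dashed lines mark a 1.5-fold change. All differences lie between -0.28 and 0.16, and every interval includes 0.

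The core subunits of complex I, which carry NADH electrons along flavin and iron-sulfur clusters to ubiquinone, had a median difference of 0.01. Ndufs7, which holds the last iron-sulfur cluster before ubiquinone, differed by 0.14 (SE 0.15). Ndufv1, the subunit that binds NADH, differed by 0.06 (SE 0.09) and Ndufv2, its iron-sulfur partner, by 0.04 (SE 0.10). The core subunits Ndufs1, Ndufs3 and Ndufs8 differed by -0.02 (SE 0.10), 0.01 (SE 0.10) and -0.06 (SE 0.10). The 95% interval of each of these differences included 0.

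The 25 accessory subunits of complex I, which surround the core and are needed to assemble or hold it, had a median difference of -0.06, with 17 lower and 8 higher. Ndufs5 had the lowest difference of all members: 0.23, 0.32, -0.33 and -0.32 in control against -0.75, -0.24, -0.15 and -0.07 in AhR, a difference of -0.28 (SE 0.19, exact permutation p = 0.286). Its control pools split into 2 high and 2 low values, and AhR 1 was lowest of all. Another Ndufs5 probe of nearly the same signal gave -0.08. Ndufb4 showed the same arrays high and low, with 0.15, 0.18, -0.25 and -0.37 in control and -0.59, -0.23, -0.34 and -0.08 in AhR, a difference of -0.24 (SE 0.15) that was -0.03 with its other probe. The 10 Ndufb subunits together were evenly divided, 5 lower and 5 higher.

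The assembly factors of complexes I and II, which build the complexes and leave them, were divided as the subunits were, with 5 of 8 lower and a median of -0.06. Ndufaf8 had the smallest unadjusted p of any member in limma, with -0.13, 0.19, -0.02 and -0.16 in control and -0.36, -0.27, -0.29 and -0.02 in AhR, a difference of -0.21 (SE 0.11, exact permutation p = 0.0857). AhR 4 stood among the controls. Ndufaf4 had the highest difference of any member at 0.16 (SE 0.10), with -0.26, 0.02, 0.08 and 0.08 in control and 0.15, 0.13, 0.23 and 0.04 in AhR. Control 1 stood below all other pools, and 3 dimmer Ndufaf4 probes gave differences of 0.05 or less. Sdhaf1, which helps load iron-sulfur clusters into Sdhb, differed by 0.13 (SE 0.10) and Sdhaf2, which helps attach flavin to Sdha, by -0.04 (SE 0.13).

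Complex II, which is also an enzyme of the tricarboxylic acid cycle, had the smallest spread of the 5, with a median SD within groups of 0.12. Sdhb, its iron-sulfur subunit, ranged only from -0.15 to -0.02 over the 8 arrays (SD 0.05) and differed by 0.02 (SE 0.08). Sdha, the flavin subunit that oxidises succinate, had 0.10, -0.09, 0.29 and 0.26 in control and 0.28, 0.06, 0.11 and 0.15 in AhR, a difference of 0.01 (SE 0.11). The groups lay on top of each other. The membrane anchors were less alike: Sdhc differed by -0.20 (SE 0.13), with control 1 at 0.37 above all other pools, and Sdhd by -0.02 (SE 0.09).

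Complex III subunits had a median difference of -0.03, with 5 of 8 lower. Uqcrfs1, the Rieske iron-sulfur protein, differed by 0.03 (SE 0.14). Uqcrc2, 1 of the large core proteins, differed by 0.07 (SE 0.11), and its partner Uqcrc1 by less than 0.01 in size (SE 0.13). The small subunits Uqcrb and Uqcr10 differed by -0.15 (SE 0.17) and -0.11 (SE 0.16). Uqcrh, the hinge protein near cytochrome c, had -0.06, 0.13, -0.30 and 0.03 in control and -0.47, -0.05, 0.06 and 0.03 in AhR, a difference of -0.06 (SE 0.14). Control 3 and AhR 1 were its low pools, and the remaining pools of both groups overlapped.

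The complex IV subunits had a median difference of -0.08, with 10 of 15 lower. The median was 0.02 without control 2, 0.09 in slide row 1 alone and -0.23 in slide row 2 alone, and with median centring or without AhR 1 it was within 0.01 of 0. The muscle forms Cox6a2 and Cox8b differed by -0.21 (SE 0.12) and -0.18 (SE 0.11), both with an exact permutation p of 0.143, at signals close to background. Cox7a2, the liver form of subunit VIIa, varied more within groups than any other member (SD 0.37): it had -0.01, 0.27, -0.42 and -0.25 in control and -0.91, -0.36, -0.21 and 0.12 in AhR. Its difference of -0.23 (SE 0.21) was well inside that spread. Cox7b, another small subunit, had -0.01, 0.15, -0.56 and -0.03 in control and -0.75, -0.01, -0.01 and -0.02 in AhR, a difference of -0.09 (SE 0.20). Apart from control 3 and AhR 1 its pools were nearly level. The subunits Cox4i1, Cox5a and Cox5b, which lie against the catalytic core, differed by 0.10 (SE 0.10), 0.11 (SE 0.13) and 0.01 (SE 0.11). Cox6a1 differed by 0.01 (SE 0.09) and Cox8a by 0.03 (SE 0.14). Cox4i2, Cox6b1, Cox6b2, Cox6c and Cox7c differed by -0.08, -0.06, -0.07, -0.11 and -0.13, each by less than its SE. Ndufa4, once counted in complex I and now placed in complex IV, differed by -0.20 (SE 0.17), and the supercomplex factor Cox7a2l by -0.21 (SE 0.13).

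In complex V the signs ran differently in the parts of the enzyme, which is a description with no test of its own. The F1 head, where ATP is made, had 2 of 5 subunits lower and a median of 0.04. Its catalytic subunit Atp5f1b had -0.37, -0.15, 0.22 and 0.11 in control and values from -0.30 to 0.19 in AhR, a difference of 0.05 (SE 0.15). Atp5f1a, Atp5f1c, Atp5f1d and Atp5f1e, the other head and central stalk subunits, differed by 0.04 (SE 0.11), -0.02 (SE 0.13), 0.04 (SE 0.09) and -0.06 (SE 0.14). Both c ring genes, Atp5mc1 and Atp5mc2, which encode the same mature proton-carrying ring protein, were higher, by 0.09 (SE 0.11) and 0.08 (SE 0.12), though another Atp5mc2 probe of similar signal gave -0.15. All 7 peripheral stalk and small membrane subunits were lower, with differences from -0.13 to -0.04 and a median of -0.10. Without AhR 1 only 3 of the 7 were lower, at a median of 0.01, without control 2 it was 5 of 7 and without control 4 it was 6 of 7. Among them Atp5pf, a peripheral stalk subunit, had 0.18, 0.17, -0.21 and 0.08 in control and -0.39, -0.01, -0.02 and 0.10 in AhR, a difference of -0.13 (SE 0.13). Atp5po, which ties the stalk to the head, differed by -0.12 (SE 0.12), and the inhibitor Atp5if1, which stops the enzyme from hydrolysing ATP, by -0.13 (SE 0.14).

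The signs were also compared between repeated probes and between the rows of the slide. Of the 83 members 15 had more than 1 kept probe, and for 8 of these all probes gave the same sign of the difference. The slide held its arrays in 2 rows, with 2 arrays of each group per row. In row 1 (control 1, control 3, AhR 2 and AhR 4) the median member difference was 0.06 and 30 of 83 members were lower. In row 2 (control 2, control 4, AhR 1 and AhR 3) it was -0.14 and 64 of 83 were lower. With the row as a block the adjusted calls stayed at 0. The low median of the members thus did not hold within both rows. Control 3 and AhR 1, on which most subunits were below their group mean, lay in row 1 and row 2. With 2 arrays per group and row, the position on the slide cannot be told apart from these pools. Leaving out AhR 1 alone left 38 of 83 lower and leaving out control 1 alone left 63 lower, the extremes over the 8 arrays. Without AhR 1 the median differences of complexes I, III and V, which were -0.04, -0.03 and -0.05 over all arrays, became 0.02, 0.01 and 0.02.

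**Figure D3:**
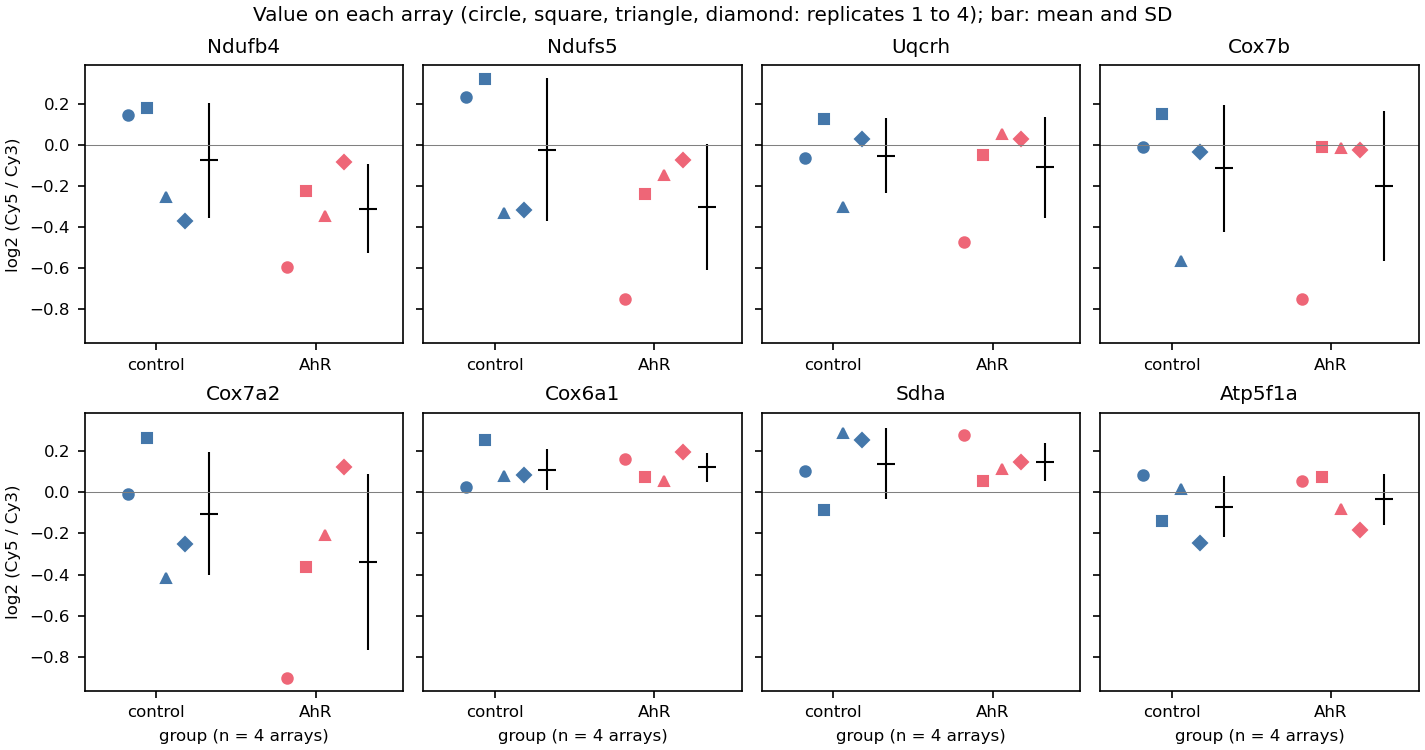
Log2 ratio of Cy5 to Cy3 on each array for 8 members, by group, with the symbol giving the replicate number and the bar the group mean and SD (n = 4). The triangle of control (control 3) and the circle of AhR (AhR 1) are low for Uqcrh at -0.30 and -0.47 and for Cox7b at -0.56 and -0.75, and are not low for Sdha at 0.29 and 0.28.

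The members varied between pools of 1 group, and many of them did so together. For each array the median deviation of the 73 subunits from their group mean was taken. In control it was 0.00, 0.06, -0.12 and 0.05 for replicates 1 to 4, and in AhR -0.11, 0.03, 0.06 and 0.09. Over all named genes the same medians lay between -0.02 and 0.01. The loess fit centres most genes of each array near 0, so these medians follow largely from the processing. The members were also brighter than most of these genes, which are therefore no matched baseline. Control 3 and AhR 1 were the low pools for the subunits, with 12 and 11 of the 73 above their group mean. They were low for complexes I, III, IV and V alike: complex IV stood at -0.18 and -0.13 and complex I at -0.12 and -0.13. Complex II was nearest to level, at -0.04 and -0.05. With median centring the lowest 4 arrays lay closer together, at -0.13 for control 3, -0.12 for control 2, -0.12 for AhR 4 and -0.09 for AhR 1, so which pools are low depends on the normalization. The median SD within groups was 0.18 for the members and 0.17 for all named genes, again without matching for brightness.

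**Figure D4:**
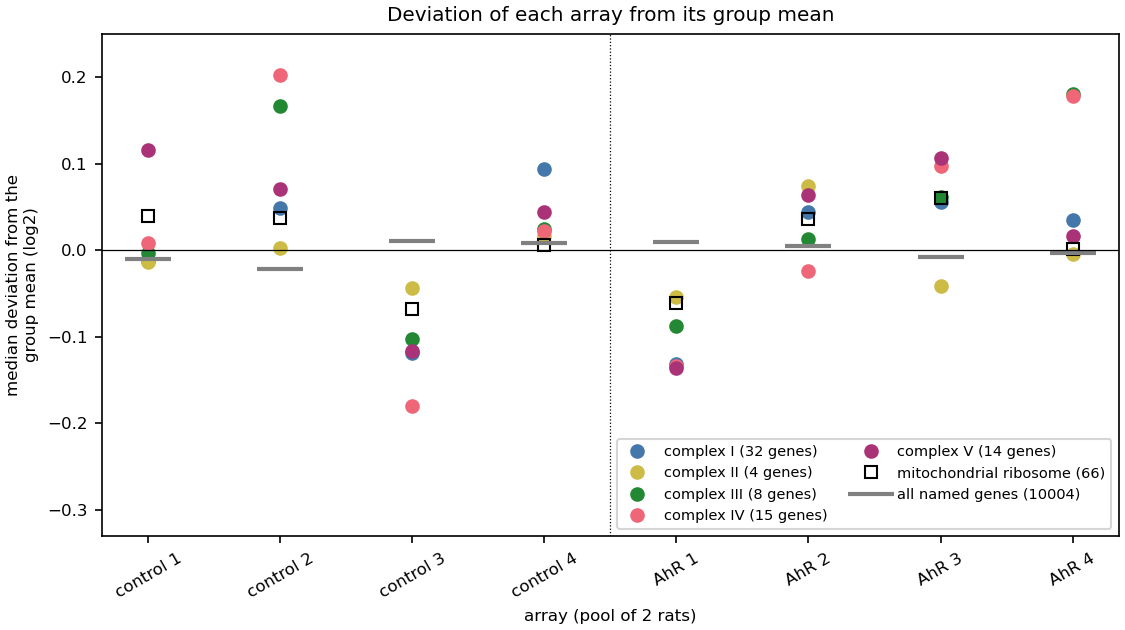
Median deviation of each array from its group mean (log2) for the subunits of each complex, for mitochondrial ribosomal protein genes (squares) and for all named genes (grey bars). Control 3 and AhR 1 lie below 0 for all 5 complexes, and all named genes, centred by the loess fit, lie between -0.02 and 0.01.

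The subunits did not all follow this pattern, and the values below describe them by their place in the complexes, with no test between the places. After group means were removed, each subunit was correlated over the 8 arrays with the mean of the other subunits. The median r was 0.53, 25 of 73 subunits were above 0.8 and 13 were below 0. The highest were Uqcrh and Cox7b at 0.98, Ndufs4, an accessory subunit of complex I, at 0.98 and Atp5pf at 0.97. The lowest were Sdha at -0.74, Atp5f1a at -0.56, Uqcrc1 at -0.53 and Atp5f1b at -0.44. In complex I the 25 accessory subunits had a median r of 0.69, with 10 above 0.8, and the 7 core subunits a median of 0.22, with 0 above 0.8. In complex V the 7 stalk and membrane subunits had a median of 0.91, and the 5 F1 subunits a median of -0.19. The 15 complex IV subunits had a median of 0.58, and 0 of them lay below 0. The points of each r share their slide, their reference and the normalization, and much of the pattern came from 2 arrays: without control 3 and AhR 1, which were chosen after seeing the data, the median r over 6 arrays was 0.25 and 30 subunits were below 0. The medians were then 0.13 for the accessory and -0.30 for the core subunits of complex I, 0.61 for the stalk and membrane and -0.47 for the F1 subunits of complex V, and 0.52 for complex IV.

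**Figure D5:**
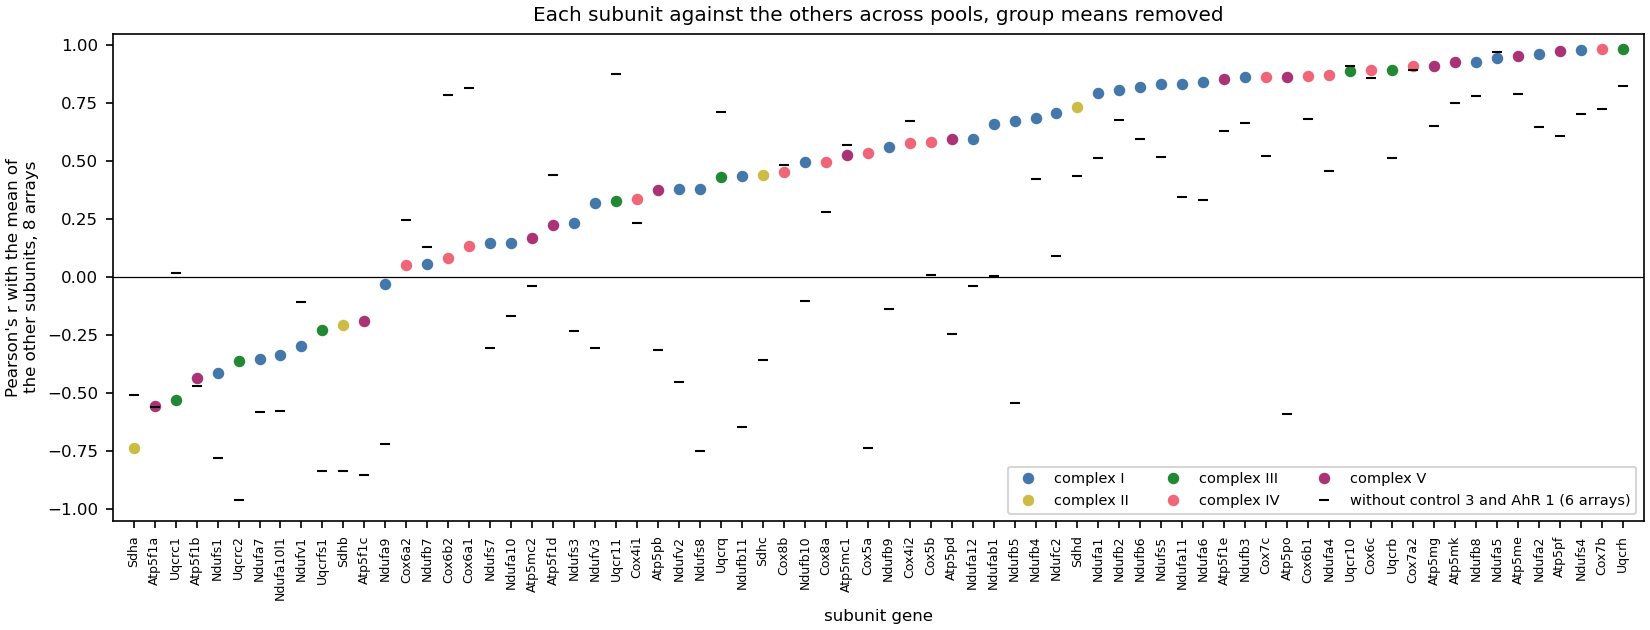
Pearson's r of the subunits shown with the mean of the other subunits over 8 arrays, group means removed, sorted by value (points, coloured by complex), and the same r over 6 arrays without control 3 and AhR 1 (dashes). Uqcrh and Cox7b stand highest at 0.98 and Sdha lowest at -0.74, and the dashes scatter widely around the points.

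The promoters of a highly correlated subunit of complex III, of a highly correlated subunit of complex V and of the least correlated subunit are shown to set their letters side by side. They are again the 250 bases before the start in RefSeq (GRCr8), with Uqcrh at chr5:134790883-134791132 and Atp5pf at chr11:37375102-37375351 on the minus strand and Sdha at chr1:30764303-30764552 on the plus strand. Capitals mark CCGGAAG or its reverse complement and, in Atp5pf, also the YY1 site AAGATGGCG.
Uqcrh: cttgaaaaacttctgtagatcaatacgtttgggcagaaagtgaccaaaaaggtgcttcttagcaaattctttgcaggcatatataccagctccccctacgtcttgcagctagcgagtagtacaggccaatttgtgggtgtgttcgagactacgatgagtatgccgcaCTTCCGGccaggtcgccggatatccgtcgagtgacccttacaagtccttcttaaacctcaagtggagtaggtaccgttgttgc
Atp5pf: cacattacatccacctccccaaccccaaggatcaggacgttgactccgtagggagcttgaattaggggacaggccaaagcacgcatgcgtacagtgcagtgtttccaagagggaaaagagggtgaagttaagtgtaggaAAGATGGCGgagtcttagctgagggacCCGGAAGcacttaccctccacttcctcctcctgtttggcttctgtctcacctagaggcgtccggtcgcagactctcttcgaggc
Sdha: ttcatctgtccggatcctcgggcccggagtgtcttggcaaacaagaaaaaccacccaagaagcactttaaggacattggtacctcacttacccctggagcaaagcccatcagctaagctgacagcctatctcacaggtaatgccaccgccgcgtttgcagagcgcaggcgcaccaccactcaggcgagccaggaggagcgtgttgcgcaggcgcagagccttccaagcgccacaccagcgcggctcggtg

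Uqcrh held CCGGAAG on the reverse strand at 83 bases before the start, and Atp5pf held AAGATGGCG at 111 and CCGGAAG at 84 bases before it. The GABPA, NRF1 and YY1 motifs had no match in the Sdha window. The other windows did not divide by correlation in this respect: among the closely correlated subunits Ndufs4 held AAGATGGCG at 5 bases after the start and Cox7b held none of the 3, and among the least correlated Atp5f1a held CCGGAAG on the reverse strand at 60 bases before the start and Uqcrc1 held GCGCATGC at 39 bases before it and AAGATGGCG across the start.

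Outside the rule, the genes whose deviations were most like the mean of the 73 subunits included Mrpl51, Pfdn5, Spata18 and Mrps21, with r from 0.98 to 0.99 over 8 arrays. They were picked for the highest r among all other named genes kept, so high values follow from the search. Mrpl51 and Mrps21 encode proteins of the mitochondrial ribosome, and Pfdn5 encodes a subunit of the prefoldin chaperone. Over the 6 arrays without control 3 and AhR 1 their r was 0.92 for Mrpl51, 0.90 for Mrps21, 0.85 for Pfdn5 and 0.78 for Spata18. These 6 arrays were also used to pick the genes. Mrpl51 was -0.29 from its group mean on control 3 and -0.30 on AhR 1. The 71 kept genes of the cytosolic ribosome, a list chosen after these values were seen, were also low on those pools, with median deviations of -0.09 on control 3 and -0.21 on AhR 1. Their difference between groups had a median of -0.08, with 52 lower and 19 higher.

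The wider respiratory pathway had no adjusted call either, as no kept probe on the array had one. Of 36 assembly factors outside the rule, 24 were lower and 12 higher in AhR, with a median of -0.02 and 0 at an unadjusted p under 0.05 in limma. Cox19 and Cox16, which serve complex IV assembly, had the smallest p and differed by -0.24 (SE 0.13) and -0.18 (SE 0.13). Of 17 genes listed for electron carriers and ubiquinone synthesis, 11 were lower and 6 higher, with a median of -0.08. Among the lower was Aox1, an aldehyde oxidase that belongs to neither function, at -0.10 (SE 0.24). Coq8a, needed to make ubiquinone, differed by -0.36 (SE 0.17), and Sqor, which passes electrons from sulfide to ubiquinone, by 0.43 (SE 0.22).

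The list for the tricarboxylic acid cycle, which supplies NADH and succinate, had 7 of 17 genes lower and 10 higher, with a median of 0.03. It left out the complex II genes, which are members, and took in the pyruvate dehydrogenase genes Pdha1, Pdhb and Dlat. Cs, citrate synthase, differed by -0.19 (SE 0.10). Of the 17 genes 1 had an unadjusted p under 0.05 in limma, against 1.61% of all kept probes. This list was not low on the pools where the subunits were: its median deviation was 0.01 on control 3 and 0.06 on AhR 1. Regulators of mitochondrial gene expression had 13 of 20 lower, with a median of -0.06. Mterf2 differed by -0.28 (SE 0.13), and Nrf1, a transcription factor for respiratory genes, by -0.17 (SE 0.09). The AhR pools of Nrf1 were all below its control pools. It was the only gene of the 20 without overlap, against 1.19% of all kept probes. Of 66 mitochondrial ribosomal protein genes 46 were lower and 20 higher, with a median of -0.06. Of these 66, 1 had an unadjusted p under 0.05 in limma, against 1.61% of all kept probes. Mrpl18 and Mrpl52 had the smallest p, with differences of -0.26 (SE 0.11) and -0.21 (SE 0.11). All adjusted p of the genes in these lists rounded to 1.00 in limma.

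Markers of the cells that liver tissue can hold were set beside the member differences. The 8 hepatocyte markers were lower in 5, with a median difference of -0.05 and array means from -0.06 to 0.15 in control and -0.09 to 0.12 in AhR. All 4 erythroid markers kept were lower in AhR, with a median of -0.45 and array means from -1.03 to 0.34 in control and -1.68 to -0.55 in AhR. Control 2 stood apart: its median erythroid ratio was 0.41, against -1.06, -0.88 and -0.99 on controls 1, 3 and 4. The AhR pools had -0.97, -0.51, -1.61 and -1.06, so the remaining controls lay among them. The 4 cholangiocyte, 6 stellate, 5 endothelial and 6 macrophage markers had medians of 0.11, 0.13, 0.21 and 0.12. All of these were higher in AhR except 1 macrophage marker. For the macrophage markers control 1 was lowest, at a median ratio of -0.67, and the other pools of both groups ranged from -0.23 to 0.33. Of the 6 stellate markers 1, Dcn, had an unadjusted limma p under 0.05 (0.0125), against 1.61% of all kept probes. Its adjusted p rounded to 1.00. On control 3 and AhR 1 the hepatocyte markers deviated by 0.08 and 0.07, so they were not low there. Of the muscle markers Myh2, Myh6 and Myl1 were not kept, and of the brown fat markers Ucp1 was not kept. Cidea, the other brown fat marker, had a mean log2 ratio of 0.44, from 0.17 to 0.90 in control and from -0.16 to 1.12 in AhR. Bulk RNA cannot tell fewer cells of a type from less RNA per cell, and the part of these cell types in the member values was not tested.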

How the data were processed

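Pools of liver RNA, 4 control and 4 AhR, were measured on 2-colour Agilent arrays. Per the file headers, the authors deposited spot intensity values written by Agilent Feature Extraction 10.7.3.1, as medians of spot and background in both channels and as processed signals already background-subtracted and dye-normalized. A value table was deposited as well, in log2 units of unstated scale. Its columns followed the unsubtracted Cy5 over Cy3 ratio after loess (r from 0.9898 to 0.9943, slope 0.978 to 0.988, column medians 0.00569 to 0.0165), with the details of its dye correction unknown.

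From the spot medians, normexp (offset 50) and a loess fit per array gave log2 ratios (limma 3.58.1, R 4.3.3), with weight 0 for control spots and those flagged as outliers. Spots of a probe were averaged, and 17859 of 30367 probes were kept by the rule on Cy5 signal. Identifiers without version numbers were looked up in RefSeq's gene table for GRCr8, which named 18004 probes. Promoter sequences are RefSeq's for GRCr8, and probe positions are not used here. The groups were tested by lmFit and eBayes over all kept probes with Benjamini-Hochberg adjustment, a procedure also tested on simulated data. Exact permutation tests were two-sided, with 0.0286 the smallest p that 4 arrays against 4 can give.

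The members, gene lists and markers were chosen with earlier results of these data known. Named with values were the core subunits of complexes I, II and III, the isoforms of complex IV, the F1, c ring and inhibitor genes of complex V, the 3 smallest p in each complex, the 3 highest and 3 lowest ratios, the 3 largest SDs within groups, the 2 smallest p in each other list and the 5 most correlated genes outside the rule. Ndufs4, Ndufs5, Uqcrh, the sequences printed and the cytosolic ribosomal list were chosen after their values were seen. Some items this rule takes in are not reported here, in the text or the figures. Alternatives covered the background correction, normalization, Cy5 alone, filters on dim probes, variance model, slide row, replicate block, value table, mean of all probes of a gene and each array left out. The number of arrays limits the precision.

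Same-numbered pools of the 2 groups correlated at 0.00, -0.06, 0.05 and -0.37 over kept probes after group means were removed, so the numbers were not taken as pairs.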

Additional observations from a re-analysis of the deposited data

Results flagged for a closer look

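In groups of 4 arrays, an array was singled out where its gap to the nearest other array, as a share of the group's range, exceeded Dixon's 95% critical value. Of the 98 groups formed by 49 named members, 4 met this, and chance gives about 5% of groups. Cox7b, a small complex IV subunit, was at -0.75 on AhR 1, while the other AhR arrays lay between -0.02 and -0.01. Ndufs3, a core subunit of complex I, was at 0.045 on control 4, while the other control arrays lay between -0.23 and -0.22. Ndufs1, the core subunit that passes electrons through its iron-sulfur clusters, was at -0.18 on AhR 4, and the others lay between 0.03 and 0.07. Ndufaf4, an assembly factor of complex I, was at -0.26 on control 1, and the others lay between 0.02 and 0.08. The cause of these values was not tested.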

How the results depend on the processing

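The count of members with an adjusted p of at most 0.05 was 0 under all 22 alternatives run. At an unadjusted p under 0.05 the count of 0 of 83 became 1 with processed signals and 1 with Cy5 alone. The shares of all kept probes there were 2.19% and 1.63%. With 1 array left out the count ran from 0 to 3. It was 3 of 83 without AhR 4, beside 2.83% of all kept probes, and 2 of 83 without control 4, beside 4.58%. The count of members without overlap was 1. It was 0 with processed signals, 0 without background subtraction, 0 with median centring and 0 with the value table. It ran from 1 to 6 with 1 array left out (6 without AhR 4, 4 without control 4). It was 2 without control 3 and AhR 1 together, 19 in slide row 1 alone and 24 in slide row 2 alone. Fewer arrays overlap less often by construction. The share over all kept probes, 1.19% with all arrays, was not taken for these smaller sets of arrays. Their counts therefore cannot be read as a result about the members. The median member difference turned to 0.060 in slide row 1 alone and lay between -0.14 and 0.01 elsewhere. It was 0.01 with median centring and 0.00 without AhR 1. The median member ratio was 0.22 with median centring; the cause was not tested. The slide rows alone and the joint omission of control 3 and AhR 1 were chosen after seeing the data. With the replicate block 53 members were lower, 0 were called, and 1.41% of probes had an unadjusted p under 0.05, against 1.61% without it. Depth limits Cox6a2 and Cox8b most, whose Cy5 signal averaged 98.1 and 123 units over a background of 71 to 76.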
